A study of Mus musculus with 10 samples.

Results

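Presentation of peptides by MHC class I was followed through 10 genes of the pathway in single cells of E0771 mammary tumors. The 10 genes were chosen by name and by role in the pathway from the 31053 genes of the deposited matrices. They are the heavy chains H2-K1 and H2-D1, the light chain B2m, the peptide transporter subunits Tap1 and Tap2, the loading factor Tapbp, the immunoproteasome subunits Psmb8, Psmb9 and Psmb10, and the transactivator Nlrc5. All 10 had UMIs in the tumor cells of every library, with totals of 380 UMIs (Psmb10) to 19877 UMIs (B2m).

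MHC class I molecules carry peptides from inside the cell to its surface, where CD8+ T cells read them. The proteasome cuts proteins into peptides, the Tap1 and Tap2 transporter moves them into the endoplasmic reticulum, and tapasin, the product of Tapbp, helps to load them onto a heavy chain paired with beta-2 microglobulin. Interferons raise most genes of this pathway, and NLRC5 acts with factors bound to a conserved promoter module to turn the class I genes on.

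The tumors grew from E0771 cells, a breast cancer line of C57BL/6 mice, injected into the fourth mammary fat pad of females aged 16 weeks and collected at day 21. EC-AGO1-KO mice carry VE-Cadherin-Cre (Cdh5-cre) and floxed Ago1 alleles on the C57BL/6 background, so that AGO1, an Argonaute protein of the RNA-induced silencing complex, is deleted in endothelial cells. The other group was WT littermates, whose Cre status is not given in the sources used here, and the tumor cells themselves carried no deletion in either group. Of the 10 libraries, 5 were WT and 5 were KO, and the KO libraries held 7 tumors because KO 2+3 and KO 5+6 pooled 2 tumors each. Batch 1 was 1 library of each genotype and batch 2 was 4 of each, and the labels give a different sequencer for each batch.

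Each library held 8323896 to 10591577 UMIs, the counted RNA molecules, and 65298 cells passed the limits of 200 to 7000 genes and at most 10% mitochondrial UMIs. Median depth was 3862 to 4049 UMIs per cell in batch 1 and 595 to 1142 in batch 2. Pairs of libraries shared at most 28 cell barcodes. The cells were clustered without the 10 genes and named from marker lists, and names ending in "-like" are rebuilt here and not the authors' annotation. Libraries held 472 to 9046 tumor-like, 32 to 413 myeloid-like and 34 to 518 T-like cells. Endothelial-like cells numbered 6 to 37 per library, and Ago1 had 0 UMIs in them in both groups, which allows up to 48.6 CPM in WT and 36.9 CPM in KO (3 counts over the group, counting error only), so the deletion could not be checked. Levels are given as CPM, the UMIs of a gene per 1000000 UMIs of that class in a library, with Actb left out of the total. For a class in a library, fewer molecules of a gene per cell and fewer cells that carry it cannot be told apart from the CPM alone.

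The genes lie on 3 chromosomes (GRCm38). H2-K1 (chr17:33996017-34000347, minus strand), H2-D1 (chr17:35262730-35267499, plus strand), Tap1, Tap2, Tapbp, Psmb8 and Psmb9 are on chromosome 17, B2m (chr2:122147686-122153083, plus strand) is on chromosome 2, and Psmb10 and Nlrc5 (chr8:94434356-94527272, plus strand) are on chromosome 8. Tap1 and Psmb9 start close to each other on opposite strands. H2-K1 and H2-D1 are near-identical copies over much of their length, so reads from shared stretches may be lost from both.

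The promoter stretches of the 3 genes that make up the class I molecule are shown because the factors that carry NLRC5 bind this module. Sequences are from RefSeq (GRCm38.p6), 5' to 3' along the gene's strand. H2-K1 is at chr17:34000349-34000468 (minus strand), H2-D1 at chr17:35262913-35263032 (plus strand) and B2m at chr2:122147538-122147648 (plus strand). Capitals mark, from left to right, a kB match (GGG and TTCCC with 2 bases between) and a short match of the interferon-stimulated response element (GAANNGAAA, here on the other strand) in H2-K1 and H2-D1 or its longer form (GAAA and GAAA with 2 bases between) in B2m, then the X2 core TGACG and the Y box ATTGG in all 3.
H2-K1: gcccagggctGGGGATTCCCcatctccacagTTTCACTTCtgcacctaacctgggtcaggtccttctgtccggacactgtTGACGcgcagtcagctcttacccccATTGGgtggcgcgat
H2-D1: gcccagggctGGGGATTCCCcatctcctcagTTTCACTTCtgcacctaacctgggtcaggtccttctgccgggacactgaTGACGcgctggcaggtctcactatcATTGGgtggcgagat
B2m: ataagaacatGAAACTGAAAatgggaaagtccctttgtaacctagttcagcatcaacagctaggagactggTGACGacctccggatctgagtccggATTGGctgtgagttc

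TGACG and ATTGG stood 20 bases apart in H2-K1, H2-D1 and B2m, a spacing found in 31 of 32851 RefSeq promoter windows (0.0944%) searched on both strands from 250 bases before to 50 after the start. Spacings of 18, 19, 21 and 22 bases were found in 0.0304%, 0.0365%, 0.07% and 0.0365% of windows and in none of the 10 genes. The single motifs were common. TGACG was in 20.8% of windows, ATTGG in 37.4%, GAANNGAAA in 7.52%, its longer form in 3.44% and the kB motif in 1.75%. The interferon gamma-activated sequence TTCNNNGAA was in 8.30% of windows and, among the 10 genes, in Psmb8. The table held windows for 8 of the 10 genes and none for Tap2 and Nlrc5. A match is a string of letters and does not show that a factor was bound.

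Of the 10 genes, H2-K1 and B2m differed most between immune-like cells and the tumor-like cells around them. Myeloid-like, T-like, B-like and dendritic-like cells were pooled as immune-like, and each library gave its own difference. H2-K1, B2m and Nlrc5 were above the tumor-like level in all 10 libraries, that is 3 of 10 genes against 7.38% of all 14179 genes tested. None of the 10 was below it in every library, against 15.6% of all genes. The median difference was 0.52 (log2 CPM with 10 CPM added) over the 10 genes and -0.13 over all genes. These classes are drawn from the same cells, so the differences are a description without a test.

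Of the chains that form the molecule, H2-K1 encodes a classical heavy chain. H2-K1 stood at 526 to 960 CPM in immune-like cells and at 9.64 to 183 CPM in tumor-like cells, so the ranges did not overlap (4.59% of all genes stood apart in this way). The mean log2 difference was 2.62 ± 0.99 (SD, n = 10 libraries). H2-K1 was at 346 to 898 CPM in myeloid-like cells and 694 to 1263 CPM in T-like cells. Both ranges lay wholly above the tumor-like one, as did those of 3.14% of all genes in myeloid-like and 2.78% in T-like cells.

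B2m encodes the light chain that every class I heavy chain needs. B2m was at 485 to 2053 CPM in immune-like cells and 256 to 485 CPM in tumor-like cells, a mean log2 difference of 1.59 ± 0.41 (SD, n = 10). The ranges met at 485 CPM, which was both the lowest immune-like level (WT 1) and the highest tumor-like level (WT 4).

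H2-D1, the other classical heavy chain of C57BL/6 mice, did not follow H2-K1. H2-D1 was higher in immune-like cells in 7 of 10 libraries, by 0.98 on the log2 scale in the mean of batch 1 and by 0.05 ± 0.32 (SD, n = 8) in batch 2. In batch 2, H2-D1 ran from 138 to 389 CPM in immune-like and from 194 to 318 CPM in tumor-like cells. Library by library, the log2 difference was 1.86 to 5.25 for H2-K1 and -0.57 to 1.04 for H2-D1, without overlap.

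Peptide supply was measured with fewer molecules. Tap1 and Tap2 form the transporter, and Tap1 was higher in immune-like cells in 7 and Tap2 in 6 of 10 libraries. Tapbp was higher in 8 of 10, with means of 80.2 CPM in immune-like and 55.3 CPM in tumor-like cells. In the immune-like cells of batch 2, both Tap1 and Tapbp reached 0 CPM in WT 4, which held the fewest immune cells.

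The immunoproteasome subunits Psmb8, Psmb9 and Psmb10 replace the constitutive catalytic subunits in immune cells and under interferon. Psmb9 was above the tumor-like level in 9 of 10 libraries with all immune-like cells pooled, and in all 10 in T-like cells, there on 1 to 8 UMIs per library in batch 2. With H2-K1 and B2m it made 3 of 10 genes there, against 4.48% of 13692 genes. Where a batch 2 library held 1 UMI of Psmb9, that UMI alone put it above the tumor-like level. The place of Psmb9 in this count therefore rests on too few UMIs to compare classes. In myeloid-like cells H2-K1 and B2m alone were above the tumor-like level in every library (5.08% of 13959 genes). Psmb8 stood at 377 CPM and 407 CPM in the immune-like cells of WT batch 1 and KO batch 1 and at 92.1 CPM and 99.9 CPM in their tumor-like cells. In batch 2, Psmb8 had 0 to 7 UMIs in the myeloid-like and 0 to 15 UMIs in the T-like cells of a library, which is too few to compare classes. In T-like cells Psmb10 had 0 UMIs in each of the 8 batch 2 libraries and 109 CPM and 127 CPM in those of WT batch 1 and KO batch 1.

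NLRC5 drives class I transcription. Nlrc5 was above the tumor-like level in every library, though by less than H2-K1, with a mean log2 difference of 0.55 ± 0.23 (SD, n = 10). In batch 2, Nlrc5 was at 216 to 464 CPM in immune-like and 137 to 311 CPM in tumor-like cells, and these ranges overlapped.

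**Figure D1:**
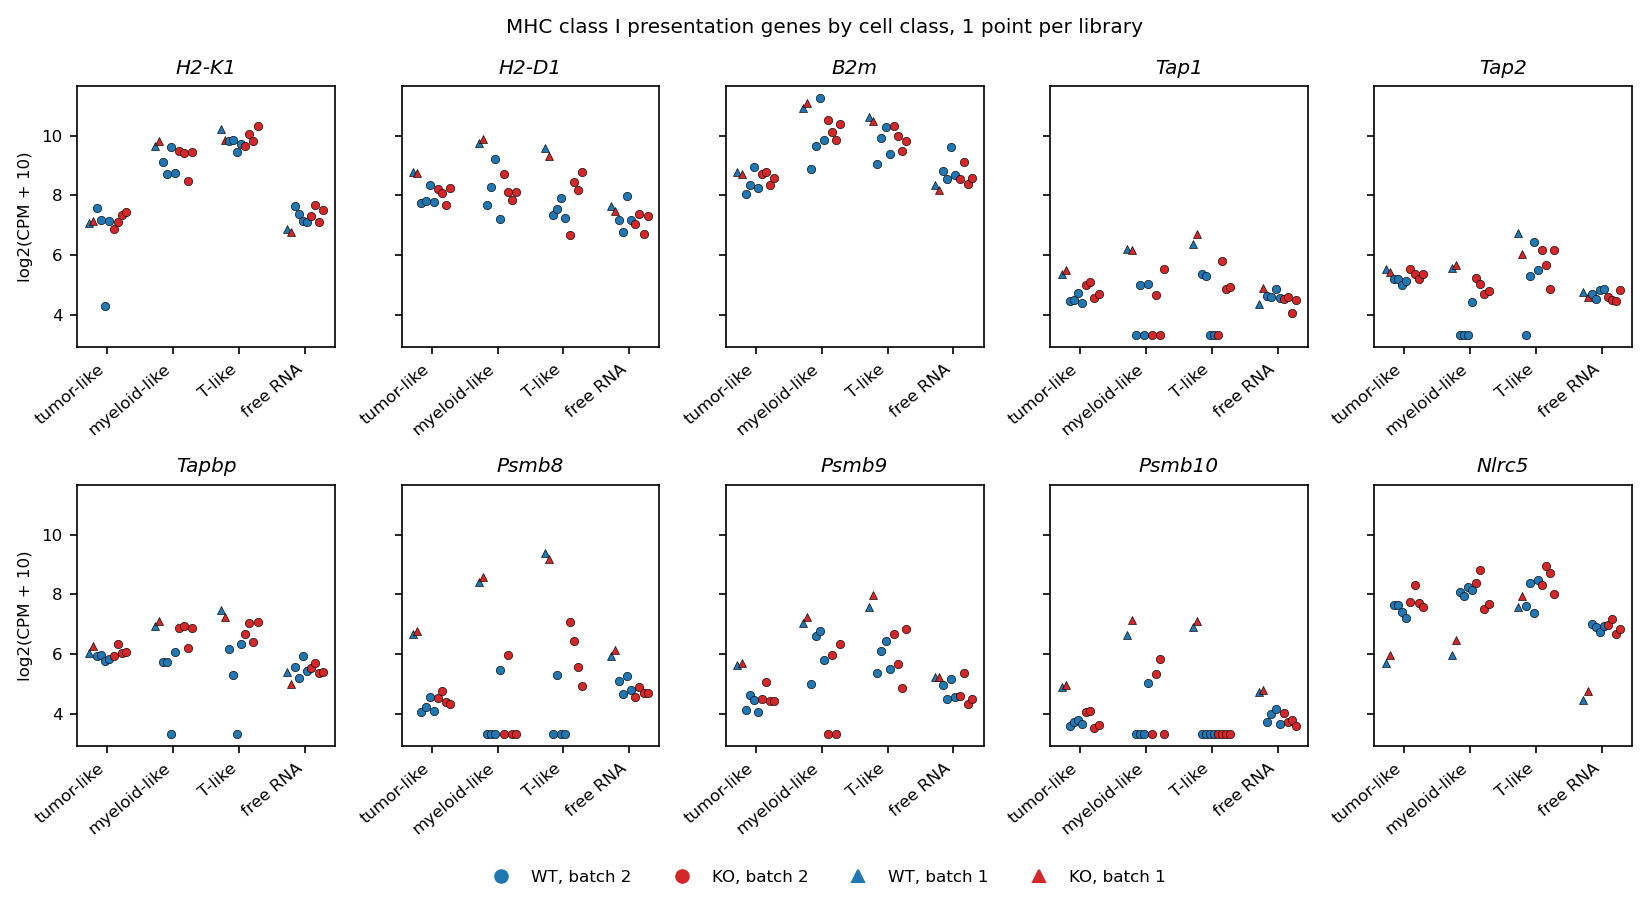
Level of each of the 10 genes, as log2 of CPM with 10 CPM added, in tumor-like, myeloid-like and T-like cells and in free RNA, 1 point per library (blue WT, red KO, triangles batch 1, circles batch 2). H2-K1 lies at 346 to 1263 CPM in both immune classes and at 183 CPM or less in tumor-like cells, while H2-D1 overlaps between the classes.

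Droplets also hold free RNA, measured here in barcodes with at most 50 UMIs. Free RNA held 98.8 to 196 CPM of H2-K1, 93.6 to 242 CPM of H2-D1 and 280.5 to 771 CPM of B2m. The tumor-like H2-K1 level was 65.1% to 134% of the free RNA level in the 9 libraries other than WT 4. It was below the free RNA level in 5 and above it in 4, so by level alone it could not be told from that background. In WT 4 it was 7.38% of the free RNA level. How much of a tumor-like cell's UMIs was free RNA was not measured. In immune-like cells H2-K1 was above the free RNA of every library. Tumor-like cells with any UMI of an immune marker made up 77.8% to 80.7% in batch 1 and 28.1% to 52.3% in batch 2. With these cells left out, H2-K1, B2m and Nlrc5 were again 3 of 10 genes above the tumor-like level in every library.

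The other genes of the pathway were described by list. Of 6 other heavy chains, H2-Q4 and H2-Q7 were above the tumor-like level in every library and none was below. Of 3 constitutive catalytic subunits of the proteasome, 0 were above and 1 was below. Of the 22 type I interferon response genes, 13 were above in every library, and of the 18 interferon gamma response genes, 5 were. Irf2 and Nfkb1 were the 2 above among 10 transcription factors of class I genes.

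H2-K1 was almost missing from the tumor-like cells of 1 library, WT 4. The tumor-like levels of H2-K1 were 123, 183, 135, 9.64 and 133 CPM in WT batch 1, WT 1, WT 3, WT 4 and WT 5. They were 132, 108, 127, 152 and 164 CPM in KO batch 1, KO 1, KO 2+3, KO 4 and KO 5+6. WT 4 lay far below the other 9 libraries, and the groups overlapped both with it and without it.

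The WT 4 value rested on 50 UMIs in 48 of 8649 tumor-like cells (0.555%, exact Clopper-Pearson 95% interval 0.409% to 0.735%). In the other 7 libraries of batch 2, 7.31% to 14.6% of tumor-like cells had an H2-K1 UMI. The low level ran through the tumor-like clusters of WT 4. In 8 of its 9 clusters H2-K1 was at 0 to 20.4 CPM, whereas the same clusters of the other 7 libraries held 73.7 to 294 CPM. The remaining cluster of WT 4 held 2 UMIs in 19 cells.

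Other cells of WT 4 did carry H2-K1. Its myeloid-like cells were at 787 CPM (8 UMIs) and its T-like cells at 694 CPM (9 UMIs), both within or near the range of the other libraries. Its free RNA held 131 CPM of H2-K1, so the tumor-like cells stood at 7.38% of the free RNA around them. The other chains were not low in WT 4. H2-D1 was at 318 CPM and B2m at 485 CPM in its tumor-like cells, the highest levels of batch 2 for both genes.

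Among 5666 genes with a median of at least 20 CPM in the tumor-like cells of the other 7 batch 2 libraries, H2-K1 was the second lowest in WT 4 relative to that median (log2 -2.89 with 10 CPM added). Airn, an antisense noncoding RNA of the imprinted Igf2r locus, was the lowest, at 13.7 CPM in WT 4 and 228 to 439 CPM in the others (log2 -4.08). Both genes are on chromosome 17, with Airn at chr17:12741311-12860136. They were picked by this rank and have no test. Mitochondrial genes came next, with mt-Nd4 at 173 CPM in WT 4 and 489 to 1050 CPM in the others and mt-Co1 at 409.6 CPM against 1064 to 1771 CPM. Actb took 16.97% of the UMIs in the kept cells of WT 4, the highest share, and 1.99% to 13.8% in the other 9 libraries. The part of either in the H2-K1 value was not tested. Within 200 kb of H2-K1, 7 such genes were measured, H2-K1 itself included, and 5 lay below all other 7 libraries. These were H2-K1, Rps28, Rps18, Brd2 and Tapbp, with log2 differences of -0.87, -0.64, -0.35 and -0.17 for the last 4. H2-K1 was picked for its low rank, so its own place in this count was fixed in advance. Tapbp was only just below, at 45.1 CPM against 46.8 CPM in the lowest of the others. Over all genes 26.5% lay below the other 7 libraries, and on chromosome 17 it was 35.7%. The reason for the low H2-K1 of WT 4 was not tested, and the labels name no separate culture of E0771 cells for it.

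**Figure D2:**
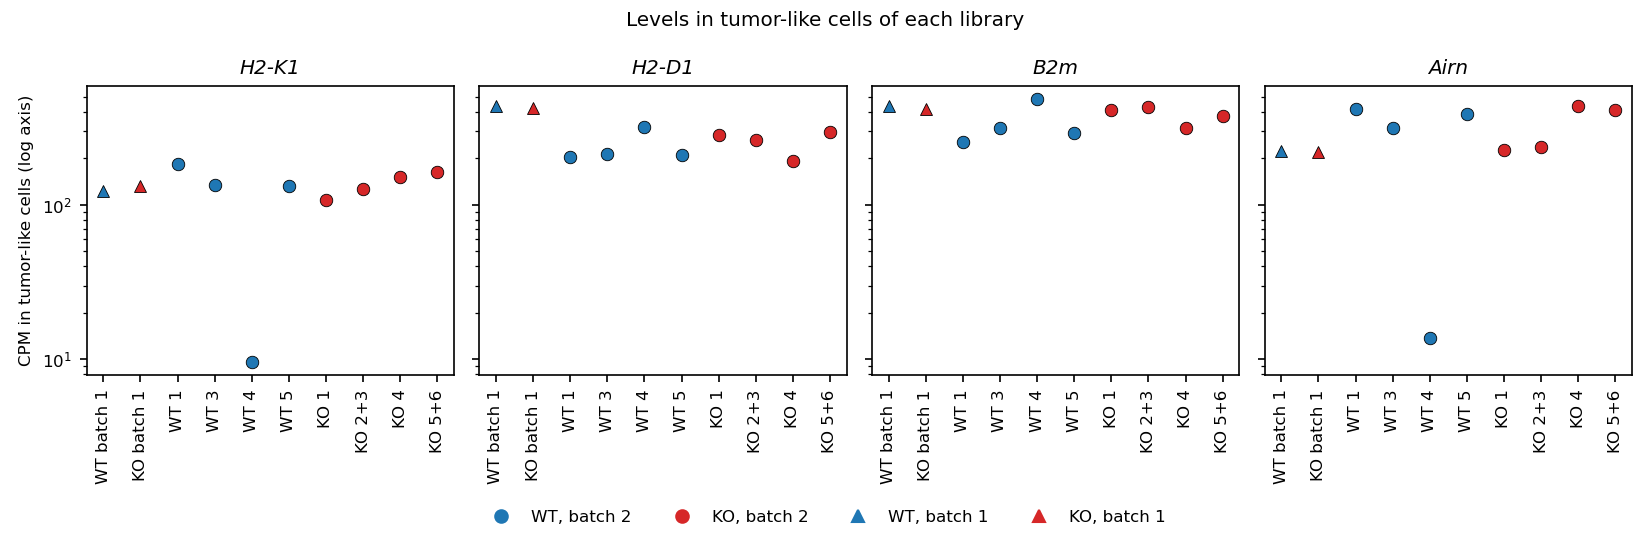
CPM of H2-K1, H2-D1, B2m and Airn (log axis) in the tumor-like cells of each library (blue WT, red KO, triangles batch 1, circles batch 2). H2-K1 and Airn of WT 4 stand at 9.64 and 13.7 CPM, far below the other 9 libraries, while H2-D1 and B2m of WT 4 lie at the top of batch 2.

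The level of 6 of the 10 genes stood apart between the batches in tumor-like cells, which is no trait of these genes, since most genes measured did so. In tumor-like cells, H2-D1, Tap1, Psmb8, Psmb9 and Psmb10 were higher in both batch 1 libraries than in all batch 2 libraries, that is 5 of 10 genes against 34% of all genes. Nlrc5 was lower in both, at 42.3 and 52.7 CPM against 137 to 311 CPM, as were 37.7% of all genes. Psmb8 was at 92.1 and 99.9 CPM in batch 1 and 6.51 to 17.4 CPM in batch 2, and Psmb10 at 19.6 and 21.5 CPM against 1.47 to 6.99 CPM. The constitutive subunits Psmb5 and Psmb6 and the proteasome activator genes Psme1 and Psme2 were also higher in both batch 1 libraries. Median depth of tumor-like cells was 9678 and 12193 UMIs in batch 1 and 597 to 1230 in batch 2. Batch, sequencer and depth per cell cannot be told apart here.

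When tumor-like cells were sorted by interferon-response UMIs, those with 2 or more held more Nlrc5 and B2m RNA in the mean over the libraries. Tumor-like cells were thinned to 500 UMIs each and sorted by their UMIs of 22 type I interferon response genes, none of which is among the 10. Cells with fewer than 500 UMIs besides Actb were left out, from 44 of 472 in KO batch 1 to 4388 of 8649 in WT 4. The values therefore describe the deeper cells only. Cells with 2 or more such UMIs (49 to 361 cells per library, 2.35% to 11.4% of the thinned cells) were set beside cells with 0. In the mean over the 10 libraries all 10 genes were higher, against 37.4% of 10090 genes tested. For the transporter and immunoproteasome genes this rested on few UMIs, as given below. Their median difference was 0.39 (log2 CPM with 20 CPM added) and that of all genes was -0.06. Cells of 1 library share its depth and free RNA, so this is a description without a test. Tumor-like cells with an immune marker UMI were kept in here. With them left out, the differences of the 10 genes stayed within 1 SD of those given. The part of stray immune RNA in these differences was not tested.

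Nlrc5 showed the widest difference of the 10. In the cells with 0 interferon UMIs Nlrc5 was at 109 to 275 CPM in batch 2, and in the cells with 2 or more it was at 261 to 463 CPM. It was higher in all 8 libraries of batch 2, and the mean log2 difference over the 10 libraries was 1.17 ± 0.63 (SD). In KO batch 1, the 1 library that went the other way, the values were 84.5 CPM (12 UMIs) and 82.1 CPM (2 UMIs). The widest difference, 2.39 in WT batch 1, also rested on few molecules, 4.43 CPM (1 UMI) and 108 CPM (3 UMIs), and is part of this mean.

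B2m was the 1 gene of the 10 that was higher in every library, which was true of 0.496% of all genes, while 0.813% were lower in every library. Its mean log2 difference was 0.37 ± 0.21 (SD, n = 10). In WT 4, B2m was at 461 CPM in the cells with 0 and 603 CPM in the cells with 2 or more interferon UMIs.

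H2-K1 was higher in 8 of 10 libraries, with a mean log2 difference of 0.48 ± 0.65 (SD), and H2-D1 in 6 of 10 (0.21 ± 0.37). The spread of both was larger than the mean. In WT 4, H2-K1 was at 8.37 CPM (13 UMIs) in the cells with 0 interferon UMIs and had 0 UMIs in those with 2 or more. The near absence of H2-K1 in that library therefore held in its cells with interferon UMIs too.

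The supply genes were split. Tapbp was higher in 9 of 10 libraries (0.55 ± 0.62), Tap1 in 9 (0.19 ± 0.61) and Tap2 in 6 (0.04 ± 0.85). Psmb8 and Psmb10 were higher in 8 of 10 libraries each (0.41 ± 0.55 and 0.45 ± 0.60) and Psmb9 in 5 (0.37 ± 0.78). In a library, the cells with 2 or more interferon UMIs held at most 22 UMIs of Tapbp and 10 of Tap2. They held at most 8 UMIs of Psmb8, 7 each of Tap1 and Psmb9, and 3 of Psmb10. Single molecules therefore set many of these library differences. Of the constitutive subunits, Psmb5 and Psmb6 had mean differences of -0.20 and -0.15 and Psmb7 one of 0.20. The activator genes Psme1 and Psme2 had means of 0.56 and 0.35.

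Of the interferon gamma response genes, which were not used for sorting, Gbp2, Gbp3, Gbp7, Igtp and Cxcl10 were among those higher in all 10 libraries (chosen after their values were seen). Gbp7 had a mean log2 difference of 1.71 and Gbp3, a guanylate-binding protein gene like it, one of 1.49. Other genes of this list did not follow. Irf1 was higher in 7 of 10 libraries (0.42) and Socs1 in 6 (0.08). Gbp6, Tgtp2 and Cxcl9 were higher in 0 libraries, each with fewer than 50 UMIs over both ranges.

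**Figure D3:**
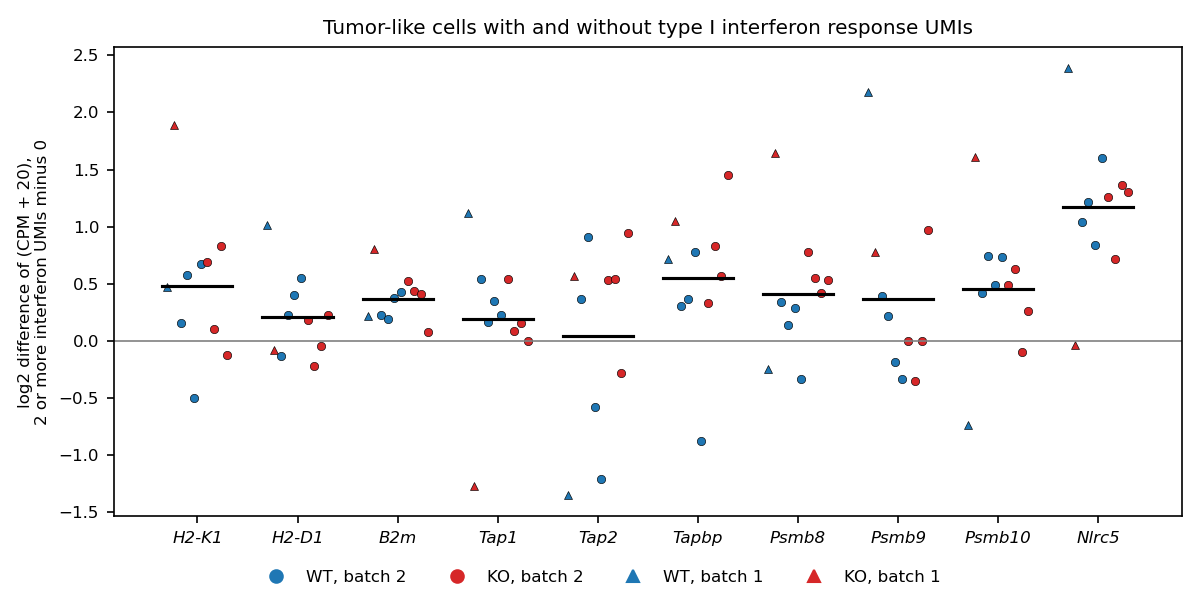
Difference in log2 CPM (20 CPM added) between tumor-like cells with 2 or more and with 0 UMIs of the type I interferon list, 1 point per library (blue WT, red KO, triangles batch 1, circles batch 2) and the mean over the 10 libraries as a bar. Nlrc5 has the highest mean of the 10 genes (1.17), and B2m is above 0 in all 10 libraries.

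Nlrc5 stood apart from the other 9 genes in the tumor-like cluster led by interferon genes. This cluster of batch 2 (2827 cells, with Ddx60, Usp18, Herc6 and Rsad2 among its leading genes) held 1964 CPM of the type I list, against 484 to 873 CPM in the other 8 tumor-like clusters. Nlrc5 was at 266 to 424 CPM in its cells and at 133 to 304 CPM in the other tumor-like cells, and was higher in it in all 8 libraries (mean log2 0.83 ± 0.34 SD). Tapbp was higher in 7 of 8 libraries (0.26 ± 0.23). H2-K1 was higher in 3 (-0.05 ± 0.25), H2-D1 in 4 (-0.05 ± 0.17) and B2m in 4 (0.08 ± 0.21). The higher B2m seen in every library when cells were sorted by interferon UMIs was thus not seen in this cluster. The remaining 5 genes were higher in 3 to 6 of 8 libraries. The share of all genes that were higher in this cluster in all 8 libraries is not given here. The cluster is drawn from the expression of the same cells, so these values are a description without a test.

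WT and KO libraries were then compared in each class, to see whether deletion of AGO1 in endothelial cells went with a different class I level in tumor or immune cells. UMIs summed per library were fitted with edgeR's quasi-likelihood test with batch as a covariate, and p-values were adjusted over all genes tested (Benjamini-Hochberg). The test called none of the 10 genes in tumor-like cells, where 1 of 12831 genes was called (0.00779%, Hbb-bs, lower in KO) and 671 (5.23%) had an unadjusted p under 0.05. Nor was any of the 10 called in myeloid-like cells (5 of 2282 genes called, 0.219%, and 5.52% at an unadjusted p under 0.05), in T-like cells (0 of 1574 called, and 77 or 4.89% unadjusted) or in all kept cells of a library (0 of 14181, and 1313 or 9.26% unadjusted). DESeq2 called 0 genes in tumor-like, myeloid-like and T-like cells and 2 in all kept cells, none of them among the 10.

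In tumor-like cells the fitted difference was above 0 for all 10 genes, as it was for 50.5% of all genes. The median over the 10 genes was a log2 difference of 0.29, and over all genes 0.00. Tap1 was at 31.5, 12.2, 12.5, 16.8 and 11.2 CPM in WT batch 1, WT 1, WT 3, WT 4 and WT 5, and at 34.8, 22.3, 23.9, 13.4 and 16.1 CPM in KO batch 1, KO 1, KO 2+3, KO 4 and KO 5+6. WT and KO overlapped within batch 2, and the difference was 0.39 ± 0.18 (SE, edgeR adjusted p = 0.896). Nlrc5 was at 42.3, 191, 192, 159 and 137 CPM in the same WT libraries and at 52.7, 204, 311, 202 and 179.7 CPM in the KO libraries.

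The Nlrc5 difference was 0.34 ± 0.15 (SE, edgeR adjusted p = 0.896), and without KO 2+3 it was 0.18 ± 0.13 (SE, edgeR adjusted p = 0.990). Tap1 and Nlrc5 were the only 2 of the 10 with an unadjusted p under 0.05. H2-K1 had a difference of 0.19 ± 0.40 (SE, edgeR adjusted p = 0.963). Without WT 4 it was -0.11 ± 0.13 (SE, edgeR adjusted p = 0.861). H2-D1 and B2m had differences of 0.05 ± 0.15 and 0.09 ± 0.16 (SE), and those of Tap2, Tapbp, Psmb8, Psmb9 and Psmb10 lay between 0.20 and 0.39. Without KO 2+3, Tap1 was at 0.28, Tapbp at 0.15, Psmb8 at 0.23, Psmb9 at 0.16 and Psmb10 at 0.18, and without KO 1, Tap2 was at 0.12 and Psmb10 at 0.17. On simulated counts for tumor-like cells the test recovered 99.0% of 99 genes changed 4-fold and 73.5% of 98 genes changed 2-fold. These were random genes changed together, which eases the adjustment of p-values. The shares therefore do not give the chance of seeing such a change in 1 of the 10 genes.

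In myeloid-like cells 5 of the 10 genes had enough UMIs to be tested. H2-K1 differed by 0.25 ± 0.19, H2-D1 by 0.17 ± 0.22, B2m by 0.33 ± 0.20, Psmb8 by 0.13 ± 0.30 and Nlrc5 by 0.34 ± 0.24 (log2, SE, edgeR adjusted p from 0.970 to 0.996). In T-like cells the same 5 genes were tested. Nlrc5 differed by 0.46 ± 0.28 and the other 4 by 0.05 to 0.24 (edgeR adjusted p from 0.962 to 0.993). In all kept cells H2-K1 differed by 0.35 ± 0.34 and Nlrc5 by 0.33 ± 0.15 (SE, edgeR adjusted p = 0.797 and 0.526).

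**Figure D4:**
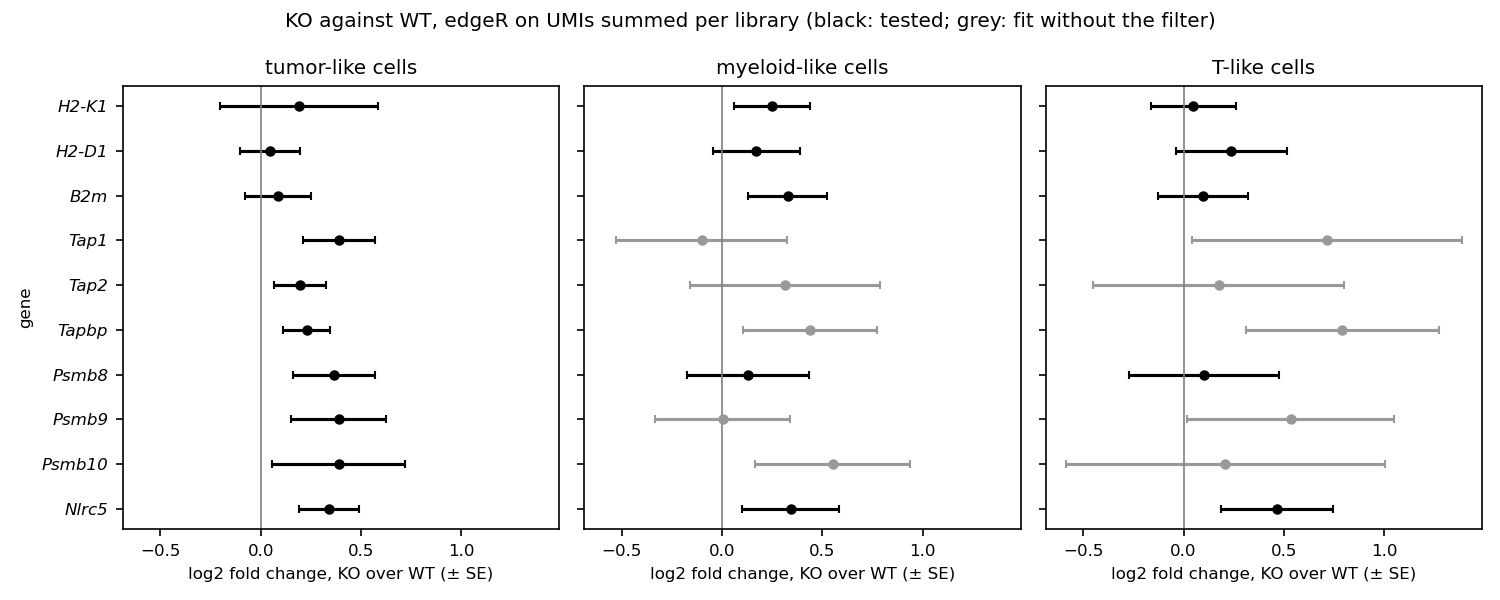
Log2 fold change KO over WT with its SE from edgeR for each of the 10 genes in tumor-like, myeloid-like and T-like cells, in black where the gene was tested and in grey where only the fit without a filter on low counts gave a value. All black points lie above 0, and no gene reached an adjusted p under 0.05.

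The interferon genes lay on the same side. In tumor-like cells 22 of 22 type I response genes and 13 of 14 tested interferon gamma response genes had a difference above 0, with medians of 0.48 and 0.60, and edgeR called none. Of the genes with the most UMIs, Bst2 differed by 0.15 ± 0.24 and Herc6 by 0.35 ± 0.22, and Gbp7 by 0.75 ± 0.26 (SE, edgeR adjusted p from 0.896 to 0.954). In myeloid-like cells Parp14, a type I response gene, was higher in KO by 0.82 ± 0.20 (SE, edgeR adjusted p = 0.0308), the 1 called gene of all lists. No gene was called in myeloid-like cells with DESeq2, without a batch term, without the pooled KO libraries, at resolution 0.5 or with mixed cells left out, so this call was lost in each of them. H2-T22 and H2-T23, of the other heavy chains, differed by 0.48 ± 0.20 and 0.05 ± 0.35 in tumor-like cells. The constitutive subunits, activators, loading factors and transcription factors of class I genes had medians of 0.15, 0.30, 0.06 and 0.07.

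The summed interferon gamma list was at 117 to 270 CPM in the tumor-like cells of the WT libraries and 217 to 601 CPM in those of the KO libraries, and the groups overlapped. The highest value was that of KO 2+3, the library with the highest Nlrc5 (311 CPM), the most T-like cells (518) and 2 pooled tumors. Tumor-like cells with an immune marker UMI made up 28.1% to 52.3% in WT and 34.6% to 48.0% in KO libraries of batch 2. With them left out, the differences of the 10 genes in tumor-like cells lay between 0.11 (H2-D1) and 0.64 (Psmb10), and edgeR again called none.

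The genes most like the 10 were sought over 64 sums of a library and class with at least 5000 UMIs. The 5 with the highest Pearson correlation to the mean standardized log2 CPM of the 10 genes were Ifi27l2a (r = 0.84), Coro1a (0.83), Ccl5 (0.83), Cd52 (0.82) and Cyba (0.82). Over the 53 sums of batch 2 alone they were Ms4a6b (0.68), Selplg (0.68), Rgs1 (0.67), Ptk2b (0.66) and Adcy7 (0.65), and so the 2 sets had no gene in common. These points share libraries, batches and depth.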

How the data were processed

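Droplet scRNA-seq of 10 E0771 tumor libraries was used. The authors deposited raw UMI counts per gene and barcode, made with Cell Ranger 7.1.0 on mm10 per the labels, with empty droplets included and no normalization. Cells were the barcodes that met the study's limits, with 200 to 7000 genes and no more than 10% of UMIs from mitochondrial genes. Actb was left out of totals. Clustering used 2000 variable genes, 30 components and 15 neighbours (scanpy 1.11.5, leidenalg 0.10.2, resolution 1, Python 3.11.15), with the 10 genes and the interferon lists kept out. A cluster was named from at least 3 markers that were 2-fold higher and detected in 2% of cells, and a cluster of another class with over 60% of the tumor-marker level was called mixed. These limits were set after the clusters were seen. Doublets were not removed.

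Libraries were the samples, and a library entered a class with 10 or more cells of it. Summed counts were tested with edgeR 4.0.16 (TMM, filterByExpr, batch as covariate, two-sided) in R 4.3.3, with DESeq2 1.42.0 as an alternative. The p-values measure the spread between these libraries. Intervals and floors cover counting error only. The study tested over cells, which gives no replicate error. The 10 genes, lists and tests were chosen with earlier results of these data known. Beyond the 10 genes, the text names called genes of each list, otherwise the 2 with the most UMIs, and the 5 genes most alike. 1 gene that this rule names is left out here, and genes named outside the rule were chosen after their values were seen. Gene positions are from the GENCODE M21 annotation and promoters from RefSeq.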

Additional observations from a re-analysis of the deposited data

Results flagged for a closer look

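Within WT and KO libraries (5 each) the highest or lowest library of each of the 10 genes was compared with its neighbours in tumor-like, myeloid-like and T-like cells by Dixon's gap ratio. Of 60 such groups 16 had a library that stood apart, where chance gives about 1 in 20, and in all 16 it was the batch 1 library. Of all genes in tumor-like cells, 34% were higher and 37.7% lower in both batch 1 libraries than in every batch 2 library, so this count says nothing particular to the 10 genes. Psmb8 stood apart in every class, at 92.1 CPM (WT) and 99.9 CPM (KO) in tumor-like, 335 and 375 CPM in myeloid-like and 654 and 569 CPM in T-like cells. Psmb10 did so at 19.6 CPM (WT) and 21.5 CPM (KO) in tumor-like cells, 90.3 CPM (WT) in myeloid-like cells, and 109 CPM (WT) and 127 CPM (KO) in T-like cells. In WT tumor-like cells Tap1 was at 31.5 CPM and Psmb9 at 39.5 CPM. H2-D1 was at 929 CPM in the myeloid-like cells of KO batch 1 and at 763 CPM in the T-like cells of WT batch 1. Nlrc5 of WT batch 1 was the 1 low value, at 53.3 CPM in myeloid-like cells. Batch and depth cannot be told apart in these values.

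H2-K1 of WT 4 in tumor-like cells did not pass this limit on the CPM scale (gap ratio 0.655 against 0.71) but did on the log2 scale (0.866).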

How the results depend on the processing

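In the alternative fits of KO against WT, none of the 10 genes was called in any of 575 results, each of 1 gene in 1 fit. The lowest adjusted p among them (edgeR or DESeq2) was 0.334. All 420 alternative differences between immune-like and tumor-like cells and all 140 between interferon ranges stayed within 1 SD of the reported value. Where an alternative only left out libraries this was bound to hold, since most of the same values were averaged again. That part says nothing of how stable the differences are. The number of called genes moved. In tumor-like cells it was 1, and 0 with DESeq2, without a batch term, in batch 2 alone, with a 20% mitochondrial limit, at resolution 0.5 and with the replicate block, 44 without a filter on low counts and 4 with mixed cells left out (0 to 1 with 1 library left out). In myeloid-like cells it was 5, and 0 with DESeq2, without a batch term, without the pooled KO libraries, at resolution 0.5 and with mixed cells left out, 2 with the 20% limit and 12 without a filter (0 to 14). In T-like cells it was 0 (0 to 4). In all kept cells it was 0, with 2 by DESeq2, 242 without a filter and 1 without the pooled KO libraries (0 to 1). The pairing of libraries by number rests on 2 shared numbers whose deviations had r = -0.16 and -0.30, so they share only a number. Under the replicate block H2-K1 differed by 0.44 in tumor-like cells.

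Some differences near 0 changed sign, and the cause was not tested. Without the pooled KO libraries H2-D1 was -0.046 in tumor-like, -0.17 in T-like and -0.0675 in all kept cells, H2-K1 -0.17 in T-like and Psmb8 -0.011 in myeloid-like cells. Without a batch term H2-D1 was -0.050 in myeloid-like cells, and H2-K1, H2-D1 and B2m were -0.0857, -0.12 and -0.0891 in T-like cells. With mixed cells left out H2-K1 and H2-D1 were -0.12 and -0.059 in T-like and Psmb8 -0.0047 in myeloid-like cells, and without a filter H2-D1 was -0.0088 in all kept cells. With 1 library left out, H2-K1 ran from -0.11 to 0.42, H2-D1 from -0.015 to 0.19 and B2m from -0.015 to 0.27 in tumor-like cells, where H2-D1 was -0.00560 without KO 5+6. In myeloid-like cells H2-D1 ran from -0.010 to 0.37, with 0.23 without WT 4, and Psmb8 from -0.032 (without KO 2+3) to 0.62. In T-like cells H2-K1 ran from -0.046 (without KO 5+6) to 0.31, with -0.00512 without WT 4 and 0.091 without KO 1. H2-D1 ran from 0.10 (without KO 2+3) to 0.94 (without WT batch 1) and Nlrc5 from 0.29 (without KO 2+3) to 0.60. B2m ran from -0.049 to 0.32 and Psmb8 from -0.047 (without KO 2+3) to 2.58 (without WT batch 1), with -0.00377 without WT 1 and 0.11 without KO 4. In all kept cells H2-D1 ran from -0.038 to 0.17, with -0.029 without KO 5+6. All kept cells were not refitted at resolution 0.5 or with mixed cells left out. Depth limits the transporter and immunoproteasome genes most, with 0 to 15 UMIs per library in the myeloid-like and T-like cells of batch 2.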

Other observations

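Endothelial-like cells, the cells in which Ago1 is deleted in KO mice, were measured in the 7 libraries of batch 2 that held at least 10 of them. H2-K1 was at 430.2, 468 and 171 CPM in WT 1, WT 3 and WT 5, and at 711, 883, 307 and 525 CPM in KO 1, KO 2+3, KO 4 and KO 5+6. B2m was at 430.2, 624 and 513 CPM in the same WT libraries and at 829.9, 1079, 919.5 and 525 CPM in the KO libraries. H2-D1 was at 323, 468 and 228 CPM in the WT libraries and at 119, 196, 76.6 and 262 CPM in the KO libraries. The values rest on 3 to 12 UMIs of H2-K1, 1 to 4 of H2-D1 and 4 to 14 of B2m per library and were not tested between groups. Free RNA of these 7 libraries held 126 to 196 CPM of H2-K1 and 323 to 547 CPM of B2m. In WT 1, B2m was at 430.2 CPM against 444 CPM in free RNA, and in WT 5, H2-K1 was at 171 CPM against 129 CPM, so at this depth neither could be told from free RNA.

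In fibroblast-like cells, which WT 4 also held, H2-K1 was at 78.7 CPM (2 UMIs) in WT 4 and at 168 to 904 CPM in the other batch 2 libraries. In pericyte-like cells it was at 175 CPM (2 UMIs) in WT 4 and at 0 to 476 CPM in the other batch 2 libraries. The fibroblast-like and pericyte-like clusters of batch 2 carried 50.8% and 46.0% of the tumor-marker level of tumor-like cells. The part of tumor RNA in these H2-K1 values was not tested.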
